A study of Mus musculus with 83 samples.

Results

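The GATA factors are 6 transcription factors, Gata1 to Gata6, that were followed here in the proximal colon of ageing mice. They were chosen by gene symbol, so no measured value selected a member, although the family was proposed with earlier results of these mice known and its pattern over age is therefore given as a description of them rather than as independent evidence. All 6 members were found among the 37764 genes of the count table. The samples were colon sections of 83 male C57BL/6J/Ukj mice kept for ageing, with no treatment and no altered gene named in the labels. The age groups were 3, 9, 15, 24 and 28 months, with 16, 16, 16, 17 and 18 mice, and each mouse gave 1 polyA library. The libraries were made in 3 preparation batches, each with 4 to 7 mice of every age.

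GATA factors bind the short DNA motif after which they are named through a pair of zinc fingers. Gata1, Gata2 and Gata3 are known for blood cells: Gata1 for red cells, platelets, mast cells and eosinophils, Gata2 for blood progenitors, mast cells and endothelium, and Gata3 for T cells and type 2 lymphocytes. Gata4, Gata5 and Gata6 are known for tissues of endodermal and mesodermal origin. In the gut epithelium of the mouse, Gata4 is a gene of the proximal small intestine and is largely absent from the colon, whereas Gata6 is made along the small intestine and the colon. Gata4 is also known from mesothelium and other mesodermal cells.

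On GRCm38, Gata1 lies at chrX:7959260-7978071 on the minus strand, Gata2 at chr6:88193891-88207032 on the plus strand, Gata3 at chr2:9857078-9890034 on the minus strand, Gata4 at chr14:63198922-63271692 on the minus strand and Gata5 at chr2:180325133-180334699 on the minus strand. The coding sequence of the second zinc finger, the one that holds the DNA motif, is shown for 5 members because it is a conserved stretch of the family, so that it shows how far reads of one gene can be told from those of another. It is 75 bases long and lies within 1 coding exon of each gene, at chrX:7960607-7960681 for Gata1, chr6:88204610-88204684 for Gata2, chr2:9863119-9863193 for Gata3, chr14:63203683-63203757 for Gata4 and chr2:180328331-180328405 for Gata5. It is written 5′ to 3′ in the sense of the gene, and the codons of its cysteines are in capitals.
Gata1: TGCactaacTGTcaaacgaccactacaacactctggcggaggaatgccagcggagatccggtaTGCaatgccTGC
Gata2: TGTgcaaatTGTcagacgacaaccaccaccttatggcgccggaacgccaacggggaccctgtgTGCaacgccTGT
Gata3: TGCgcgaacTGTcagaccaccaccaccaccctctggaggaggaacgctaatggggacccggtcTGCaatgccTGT
Gata4: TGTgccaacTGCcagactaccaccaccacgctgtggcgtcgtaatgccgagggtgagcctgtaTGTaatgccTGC
Gata5: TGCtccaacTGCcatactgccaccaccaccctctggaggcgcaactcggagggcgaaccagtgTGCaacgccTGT
Its protein product was identical at 19 to 25 of 25 residues between any pair of the 6 members, and at all 25 between Gata2 and Gata3. The base sequence was less alike, with 51 to 61 of 75 bases identical. The longest run of identical bases between the transcripts of any pair of members was 26, between Gata4 and Gata5, against a read length of 100 bases, and reads that mapped to more than 1 place had been discarded. No identical stretch was as long as a read.

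The depth was 23026370 to 75838290 counted read pairs a mouse, with a median of 35495123, and the age groups had medians of 34386697 to 36716280. The log2 profile of each library correlated with the median of its age group at r = 0.983 or more. The tissue label was checked against marker genes. The colonic markers were high, with a mean of 16638 to 19758 CPM for the mucin Muc2 and 6150 to 7640 CPM for the carbonic anhydrase Car1 in the 5 age groups. Of the 13 markers listed for the small intestine, some were also abundant, among them Fabp2, a fatty acid binding protein, with means of 448 to 589 CPM and Apob with 188 to 423 CPM, while Lct, the lactase, Apoa4 and Apoc3 had means below 0.2 CPM at every age. CPM are counts scaled to a common library size, with edgeR's TMM factors applied.

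Per exon length, Gata6 was the most abundant member by more than the spread between mice. TPM, in which counts are divided by exon length, allow levels of different genes to be compared. At 3 months the median TPM was 20.8 for Gata6, 1.87 for Gata5, 1.34 for Gata2, 0.853 for Gata3, 0.555 for Gata4 and 0.0556 for Gata1. Gata6 was above each other member in all 83 mice. Its mean TPM stood at the 64.0th percentile of the 18325 genes that passed the filter on low counts, whereas Gata2, Gata3, Gata4 and Gata5 stood between the 18.9th and the 21.7th. At 3 months the neighbours Gata3 and Gata4 were not separated, since Gata3 was above Gata4 in 10 of 16 mice.

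By 28 months the order had changed. Gata6 remained first with a median of 20.4 TPM, Gata4 was second with 3.21, and Gata3 with 1.92, Gata5 with 1.84 and Gata2 with 1.79 followed. Gata4 was above Gata3 in 18 of 18 mice at this age. Gata3 was above Gata5 in 12 of 18 and Gata5 above Gata2 in 10 of 18, so that these 3 were not separated. At 24 months Gata4 had already been second with 2.34 TPM, above Gata3 in 13 of 17 mice, whereas at 15 months it had stood below Gata6, Gata5, Gata3 and Gata2 with 0.943 TPM.

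**Figure D1:**
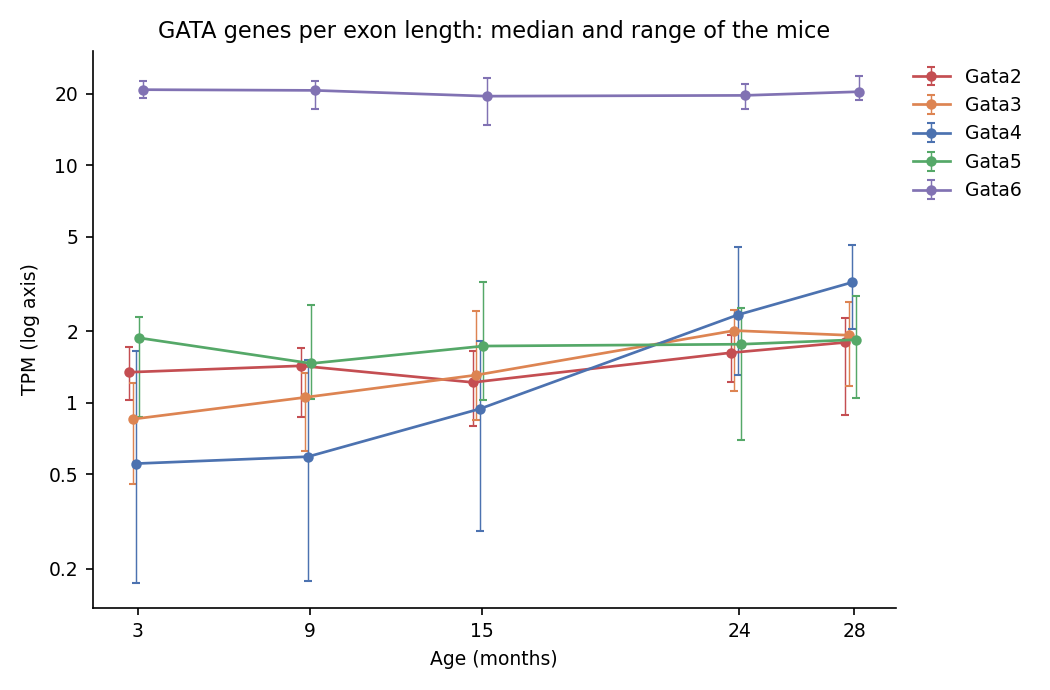
TPM of 5 GATA genes (log axis) against age in months, with the median as a point and the lowest and highest mouse as bars, 16 to 18 mice an age; points are shifted sideways for legibility and Gata1, which is at 0 in 19 mice, is left out. Gata6 lies near 20 TPM at every age, and Gata4 moves from 0.555 TPM, the lowest of the 5, to 3.21 TPM, the second highest.

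The members together made 25.6 ± 0.953 TPM in the 16 youngest mice and 29.5 ± 1.62 TPM in the 18 oldest (SD). Gata6 made 81.6% ± 2.56 of this sum at 3 months and 70.5% ± 2.89 at 28 months (SD). Over the same ages the share of Gata4 went from 2.54% ± 1.71 to 10.9% ± 2.11, and that of Gata3 from 3.38% ± 0.804 to 6.26% ± 1.37. Set against Gata6 in the same mouse, Gata4 TPM were 3.16% ± 2.24 of Gata6 TPM at 3 months (range 0.867% to 8.59%), 12.1% ± 3.83 at 24 months (lowest 6.83%) and 15.6% ± 3.27 at 28 months (range 8.63% to 21.5%). The ranges at 3 and 28 months did not overlap, and even in the oldest mice Gata4 stayed far below Gata6.

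Differences between ages were tested with edgeR's quasi-likelihood test in 1 model over all 83 mice, with age group and library batch as terms. P-values were adjusted by Benjamini-Hochberg over the 18325 genes that passed the filter on low counts, and a gene was called at an adjusted p below 0.1. Each library was a separate mouse, so these p-values measure the spread between mice. Of the 6 members, 5 passed that filter and Gata1 did not. Between 28 and 3 months, 3 of the 5 tested members were called, Gata2, Gata3 and Gata4, all higher at 28 months. In this comparison 49.4% of all tested genes were called, 23.5% higher and 25.9% lower, so 3 of 5 is close to the share over all genes. In bulk tissue a change in the number of the cells that make an RNA and a change in the RNA made per cell cannot be told apart, and this holds for every value below.

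Gata4 had the largest fold change among the tested members. At 3 months its lowest, median and highest values were 0.234, 0.719 and 2.18 CPM, and at 9 months 0.227, 0.746 and 1.959 CPM. The 15-month mice had 0.367, 1.23 and 2.52 CPM, the 24-month mice 1.61, 2.97 and 5.90 CPM, and the 28-month mice 2.47, 4.03 and 5.74 CPM. Each of the 18 mice at 28 months was above the highest mouse at 3 months and at 9 months, and 17 of them were above the highest mouse at 15 months. The 24- and 28-month ranges overlapped, and 17 of 18 mice at 28 months were above the 24-month median but none was above the highest 24-month mouse.

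From 3 to 28 months Gata4 rose by 2.28 ± 0.22 on the log2 scale (SE, adjusted p = 2.73e-14), a 4.84-fold rise. Its rise ranked 14 among the 7784 called genes with a mean of at least 1 CPM, and over all tested genes its absolute change was at the 99.7th percentile. Taken in successive steps, the change was 0.05 ± 0.23 from 3 to 9 months (adjusted p = 0.935), 0.67 ± 0.23 from 9 to 15 months (adjusted p = 0.26), 1.15 ± 0.21 from 15 to 24 months (adjusted p = 0.0001956) and 0.41 ± 0.20 from 24 to 28 months (adjusted p = 0.203). Of these steps the one from 15 to 24 months was called, and a fit of only the 2 ages also called the last step, at 0.42 with an adjusted p of 0.0501. The 15-month mice were already higher than the 3-month mice, by 0.72 ± 0.23 (adjusted p = 0.0431). That call was lost without the 15-month mouse 15 (0.65, adjusted p = 0.101) and in a fit of only the 2 ages (0.72, adjusted p = 0.19).

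The rise of Gata4 was present in each library batch. From 3 to 28 months it was 2.22, 2.62 and 2.05 on the log2 scale in batches 1, 2 and 3, and from 15 to 24 months 1.07, 1.08 and 1.503. The difference between 15 and 3 months varied more, with 0.88, 1.02 and 0.07, and in batch 3 the 15-month mice had 1.08 ± 0.585 CPM (SD, n = 4) beside 1.01 ± 0.719 CPM at 3 months (SD, n = 5). The study places Gata4 and Gata2 in a protein interaction network of genes that it found to change from mid to late life in both DNA methylation and RNA. The RNA was that of these same mice, so the direction of Gata4 and Gata2 has no independent source here.

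Gata3 was higher at 15 months and later than in the youngest mice. The lowest, median and highest values were 0.584, 1.08 and 1.54 CPM at 3 months, 0.811, 1.44 and 1.76 CPM at 9 months, and 1.11, 1.80 and 3.68 CPM at 15 months. At 24 months they were 1.43, 2.55 and 3.35 CPM and at 28 months 1.498, 2.47 and 3.38 CPM. Of the 28-month mice, 17 of 18 were above the highest 3-month mouse, and 15 of 17 at 24 months were. The highest mouse of all was 15 months old, and none of the 24- or 28-month mice was above it.

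From 3 to 28 months Gata3 rose by 1.08 ± 0.13 on the log2 scale (SE, adjusted p = 1.16e-10), a 2.11-fold rise. By step, the change was 0.25 ± 0.13 from 3 to 9 months (adjusted p = 0.285), 0.54 ± 0.13 from 9 to 15 months (adjusted p = 0.0361), 0.33 ± 0.13 from 15 to 24 months (adjusted p = 0.0866) and -0.05 ± 0.12 from 24 to 28 months (adjusted p = 0.863). In the step from 9 to 15 months 0.431% of all tested genes were called, and Gata3 was the 1 member called of 5. The within-batch changes from 9 to 15 months were 0.93, 0.35 and 0.28, and the call was lost without the 15-month mouse 1 (0.47, adjusted p = 0.129) or the 15-month mouse 15 (0.45, adjusted p = 0.132), both of batch 1, which had the 2 highest values of their age, 3.36 and 3.68 CPM.

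The step of Gata3 from 15 to 24 months was -0.10 in batch 1 and 0.65 and 0.48 in batches 2 and 3, and it was lost without a filter on low counts (0.34, adjusted p = 0.153) and on leaving out any one of 23 mice. The difference between 28 and 15 months, 0.28 ± 0.12 (adjusted p = 0.0688), was likewise lost on leaving out any one of 9 mice. Between 28 and 3 months the changes in batches 1, 2 and 3 were 1.27, 1.03 and 1.02.

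Gata2 had the smallest fold change of the 3 called members. At 3 months its lowest, median and highest values were 1.79, 2.38 and 3.20 CPM, at 9 months 1.57, 2.56 and 3.00 CPM, and at 15 months 1.42, 2.23 and 3.24 CPM. At 24 months they were 2.14, 2.91 and 3.45 CPM and at 28 months 1.54, 3.13 and 3.87 CPM. The ranges overlapped at all ages, but 17 of 18 mice at 28 months were above the 3-month median and 7 of 18 above the highest 3-month mouse. The lowest of the oldest mice, mouse 13 of batch 1, had 1.54 CPM where the next had 2.53.

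Gata2 rose from 3 to 28 months by 0.36 ± 0.09 on the log2 scale (SE, adjusted p = 5.1e-04), a 1.28-fold rise. The change was -0.02 ± 0.09 from 3 to 9 months (adjusted p = 0.939), -0.05 ± 0.09 from 9 to 15 months (adjusted p = 0.917), 0.33 ± 0.09 from 15 to 24 months (adjusted p = 0.0117) and 0.09 ± 0.08 from 24 to 28 months (adjusted p = 0.554). In batches 1, 2 and 3 the rise from 15 to 24 months was 0.32, 0.23 and 0.53, and that from 3 to 28 months 0.38, 0.43 and 0.31. Gata2, Gata3 and Gata4 were the 3 of 5 tested members called from 15 to 24 months, a step in which 13.5% of all tested genes were called, 6.28% higher and 7.24% lower.

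**Figure D2:**
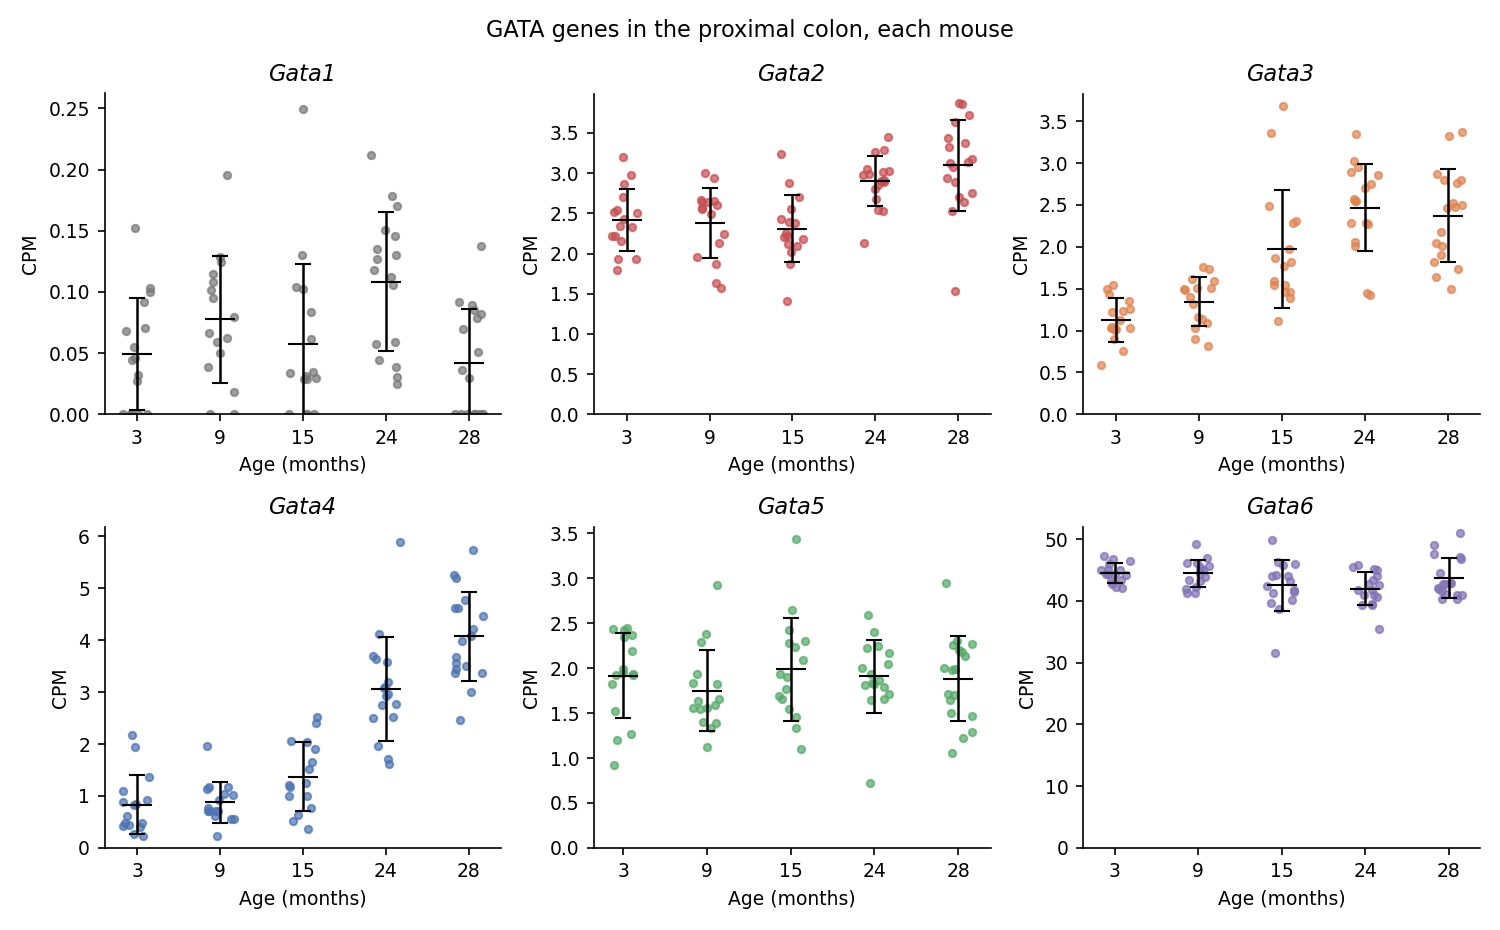
CPM of each mouse (points) against age in months for the 6 GATA genes, 1 panel a gene with its own axis from 0, with the mean and SD in black (the SD bar of Gata1 is cut at 0). Gata4 moves from a median of 0.719 CPM at 3 months to 4.03 CPM at 28 months with no overlap of these ages, while Gata5 and Gata6 keep overlapping ranges throughout.

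Gata6, a GATA factor of the gut epithelium that lies on chromosome 18, varied little with age. The lowest, median and highest values were 42.1, 44.4 and 47.3 CPM at 3 months, 41.2, 44.7 and 49.2 CPM at 9 months, and 31.5, 42.9 and 49.9 CPM at 15 months. At 24 months they were 35.5, 41.8 and 45.9 CPM and at 28 months 40.3, 42.8 and 51.0 CPM. The ranges overlapped at all ages. Its spread between mice was the smallest of the family, with a coefficient of variation of 3.52% at 3 months, and it was wider at later ages, between 4.96% and 9.64%. Gata6 also had the most counts, 1186 to 1957 a mouse at 3 months beside 30 to 102 for Gata5. Low counts by themselves widen this spread, so it is not directly comparable between members.

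Between 28 and 3 months Gata6 differed by -0.03 ± 0.03 on the log2 scale (SE, adjusted p = 0.532), with a 95% interval of -0.09 to 0.04 taken as 1.96 SE to each side. None of its 4 successive steps was called, with changes of 0.00, -0.06, -0.01 and 0.06 and adjusted p-values of 0.328 to 0.966. One of the 10 pairs of ages was called for Gata6, 24 against 3 months, at -0.08 ± 0.03 (adjusted p = 0.0591). The fall was -0.07, -0.05 and -0.11 in batches 1, 2 and 3. It was lost without a filter on low counts (-0.08, adjusted p = 0.141) and without the 3-month mouse 10 or 15 or the 24-month mouse 1 or 14 (-0.07 each, adjusted p = 0.114 to 0.138). The difference of Gata6 between 24 and 9 months, -0.08 ± 0.03, was not called (adjusted p = 0.126). It became called on leaving out any one of 8 mice, and its lowest adjusted p among the alternative fits was 0.0851.

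Gata5, a factor of the gut epithelium, heart and smooth muscle, gave no call in any of the 10 pairs of ages. Its medians were 1.94, 1.61, 1.91, 1.87 and 1.99 CPM at 3, 9, 15, 24 and 28 months, with values of single mice between 0.722 and 3.44 CPM. The ranges overlapped at every age. Between 28 and 3 months Gata5 differed by -0.03 ± 0.13 (SE, adjusted p = 0.884), with a 95% interval of -0.28 to 0.23.

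Gata1, the factor of red cells, platelets, mast cells and eosinophils, was barely detected. It had 0 to 8 counts a mouse, 204 counts in all 83 mice, and 19 mice had a count of 0. The lowest, median and highest values were 0, 0.0451 and 0.152 CPM at 3 months, 0, 0.0731 and 0.195 CPM at 9 months, and 0, 0.0323 and 0.249 CPM at 15 months. At 24 months they were 0.0249, 0.118 and 0.212 CPM, and at 28 months 0, 0.0329 and 0.138 CPM. The 24-month group was the one with no mouse at 0, whereas 8 of 18 mice at 28 months were. Without the filter on low counts, the change from 3 to 24 months was 1.10 ± 0.42 (SE, adjusted p = 0.0791) and that from 24 to 28 months -1.13 ± 0.41 (adjusted p = 0.135), and the test over all 5 ages gave an adjusted p of 0.115. The first of these was below the threshold of 0.1, in a fit that was not the one used for the other members.

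Between 9 and 3 months 0 of 5 were called by edgeR at an adjusted p below 0.1, none of them had an unadjusted p below 0.05 and DESeq2 called 0 as well, and 8.69% of all tested genes were called. Between 28 and 24 months 0 of 5 were called, with 11.7% of all genes, although Gata4 had an unadjusted p of 0.0404, and DESeq2 called 0. Between 15 and 3 months Gata3 and Gata4 were called, 2 of 5 against 7.75% of all genes. The comparison of 24 with 3 months called 4 of 5, Gata6 lower and the others higher, against 34.5% of all genes. Gata2, Gata3 and Gata4 were each called higher at 24 against 9 months, 28 against 9 months and 28 against 15 months, where 15.5%, 40.0% and 42.4% of all genes were called. These comparisons share mice with each other.

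**Figure D3:**
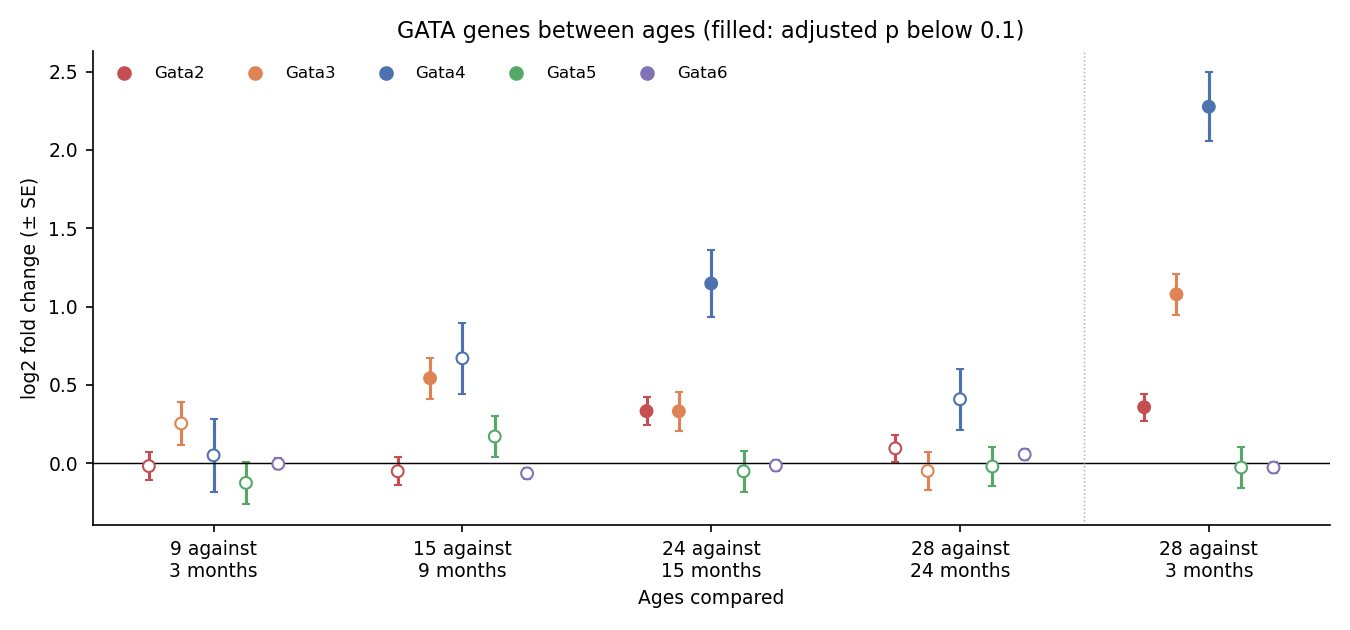
Fold change (log2, with SE) of 5 GATA genes for the 4 successive steps in age and for 28 against 3 months, with filled points at an adjusted p below 0.1. Gata4 reaches 1.15 from 15 to 24 months and 2.28 over the whole span, Gata3 is called from 9 to 15 months at 0.54, and Gata5 and Gata6 stay near 0.

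The shape over age was tested with a straight line in age and with the higher polynomial terms of age. A straight line was called for Gata4, Gata3 and Gata2, 3 of 5 members against 53.2% of all genes, with slopes on the log2 scale of 0.10 ± 0.01 a month (SE, adjusted p = 5.21e-20), 0.05 ± 0.00 (adjusted p = 5.41e-14) and 0.02 ± 0.00 (adjusted p = 1.35e-05). The slope of Gata6 was 0.00 (adjusted p = 0.134) and that of Gata5 0.00 (adjusted p = 0.878). Departure from the line was called by edgeR for 0 of 5 members, against 16.2% of all genes, although Gata2 and Gata3 had unadjusted p-values of 0.024 and 0.0339 (adjusted p = 0.126 and 0.154), and Gata4 had an adjusted p of 0.228. A single test of any difference between the 5 ages was called for Gata4 (adjusted p = 1.48e-18), Gata3 (adjusted p = 3.84e-13) and Gata2 (adjusted p = 1.51e-05), 3 of 5 against 54.9% of all genes. Gata6 lay just above the threshold of 0.1 and was not called, and Gata5 had an adjusted p of 0.815.

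The members were also compared with each other across mice of the same age. For each of the 15 pairs of members, log2 CPM (prior count 2) were taken with the means of age group and batch removed, and Pearson's r over 83 mice was tested by a permutation test with 100000 resamples. No pair passed an adjusted p of 0.1 (Benjamini-Hochberg over the 15 pairs). The pair with the largest r was Gata5 and Gata6, at r = 0.28 (permutation p = 0.0118, adjusted p = 0.176) and Spearman's rho = 0.15 (permutation p = 0.164, adjusted p = 0.493). Its r was 0.20 without the 2 mice farthest from the median of Gata5, and -0.09, 0.11 and 0.54 within batches 1, 2 and 3. For Gata3 and Gata4, the members with the largest changes over age, r was 0.16 (permutation p = 0.158, adjusted p = 0.475), rho was 0.19 (permutation p = 0.0827, adjusted p = 0.413) and r without the 2 farthest mice was 0.13. When age and batch were not removed, the same pair had r = 0.66, which contains the rise of both genes with age.

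The genes whose pattern over the 83 mice was most like that of a member were taken from 14962 tested genes with a mean of at least 1 CPM, by Pearson's r of log2 CPM with the batch means removed and age kept. These r are descriptions. The 5 genes nearest to Gata4 were Tfap2a (r = 0.83), Dmrta2 (r = 0.82), Gpnmb (r = 0.80), Mmp12 (r = 0.79) and Pou4f1 (r = 0.78). Tfap2a, Dmrta2 and Pou4f1 encode transcription factors of other families, and Gpnmb and Mmp12 are known from macrophages. Tfap2a went from 0.0796 ± 0.0543 CPM at 3 months (SD, n = 16) to 3.86 ± 0.660 CPM at 28 months (SD, n = 18), and Dmrta2 from 0.277 ± 0.105 to 12.2 ± 1.54 CPM. Once the age means were removed as well, the r of these 5 genes with Gata4 were 0.08, 0.03, 0.15, 0.13 and 0.25, so the likeness lay in the ages and hardly in the differences between mice of one age. Tfap2a had a mean of only 0.172 CPM at 15 months, and the noise of such low counts lowers an r between mice of one age.

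The genes nearest to Gata3 were Apbb1ip (r = 0.82), Tmem154 (r = 0.80), Col6a5 (r = 0.80), C130026I21Rik (r = 0.79) and Csf2rb (r = 0.78), and with age removed r was still 0.50 to 0.68. Apbb1ip is known for integrin activation in leukocytes, and Csf2rb is the chain shared by the receptors of several cytokines of myeloid cells. The genes nearest to Gata2 were Htra3 (r = 0.74), Tns2 (r = 0.72), Npr1 (r = 0.72), Ramp2 (r = 0.71) and Mn1 (r = 0.69), with 0.58 to 0.60 when age was removed. Npr1 is the receptor of a natriuretic peptide and Ramp2 a part of the adrenomedullin receptor, both known from vessels.

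For Gata6 the nearest genes were Map3k21 (r = 0.64), Tesk1 (r = 0.63), Camsap3 (r = 0.62), Ihh (r = 0.62) and Spata2 (r = 0.60). Ihh is the hedgehog ligand of the gut epithelium, and Camsap3 organizes microtubules in epithelial cells. For Gata5 the nearest genes reached lower values, with Abr (r = 0.47), Crybg1 (r = 0.43), Myo5b (r = 0.42), Lima1 (r = 0.42) and Dgka (r = 0.42). Myo5b is the motor of apical recycling in enterocytes. Removing age moved the r of Gata5 and Gata6 with their nearest genes by little, to 0.43 to 0.49 and 0.57 to 0.64.

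**Figure D4:**
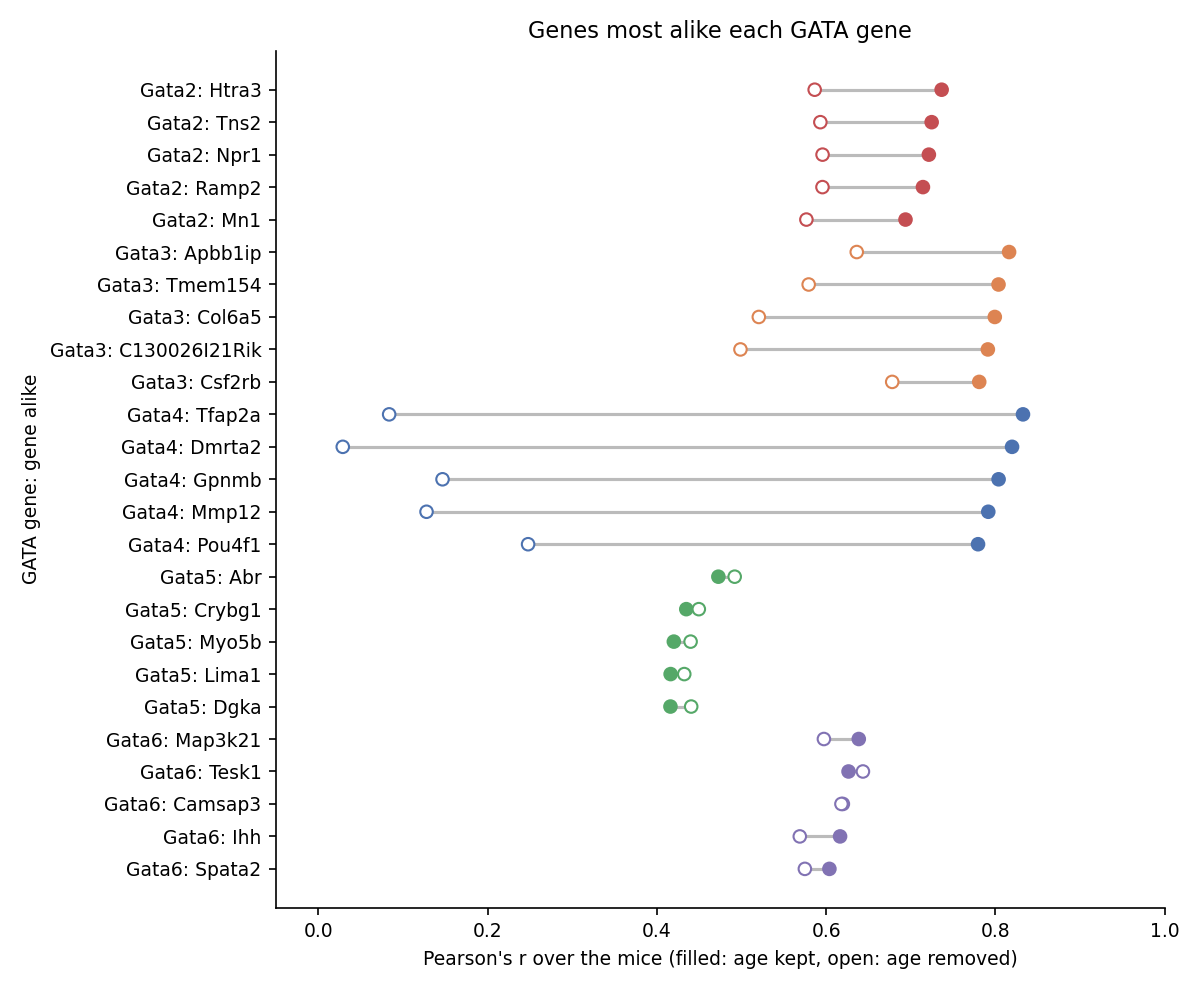
Pearson's r over 83 mice (no unit) of each GATA gene with the 5 genes most like it, with age kept (filled) and with the age means removed (open). The open points of Gata4 fall to 0.03 to 0.25, while those of the other members stay at 0.43 or above.

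Marker genes of cells that could carry these factors were read as well, and their counts at 28 against 3 months stand beside the 49.4% of all tested genes called in that comparison. The 15 lists of markers, none of which holds a member, were read in the same libraries, and their mean log2 CPM was correlated with each tested member over the 83 mice, with age and batch means removed. Of these 75 pairs, 13 passed an adjusted p of 0.1 for Pearson's r (permutation test with 100000 resamples, Benjamini-Hochberg over 75, smallest p possible 1e-05). A mean over markers follows their RNA in the tissue and is no cell count.

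Gata3 correlated with lymphocyte markers across mice of one age. Its r was 0.67 with the type 2 lymphocyte list (permutation p = 1e-05, adjusted p = 0.000188, rho = 0.68 with permutation p = 1e-05 and adjusted p = 0.00025), 0.67 without the 2 farthest mice and 0.72, 0.67 and 0.64 within batches. With the T cell list r was 0.57 (permutation p = 1e-05, adjusted p = 0.000188, rho = 0.55 with adjusted p = 0.00025), 0.52 without the 2 farthest mice and 0.68, 0.35 and 0.64 within batches. With the eosinophil list r was 0.53 (permutation p = 1e-05, adjusted p = 0.000188, rho = 0.53 with adjusted p = 0.00025), 0.44 without the 2 farthest mice and 0.69, 0.50 and 0.22 within batches. Over age the lists moved unevenly. At 28 against 3 months, 2 of 5 tested type 2 lymphocyte markers were called, both higher, Klrg1 and Icos. The median log2 change was 0.14 over the 5 against -0.01 over all genes, beside 1.08 for Gata3. Klrg1 had the largest change, 1.16, followed by Icos with 0.28, Il17rb with 0.14, Il1rl1 with -0.20 and Areg with -0.22. The summed level of the 10 markers had its highest median at 15 months, 42.6 CPM (range 27.6 to 60.7), against 32.6 CPM at 3 months (range 24.1 to 48.4), 34.2 CPM at 9 months (range 20.4 to 52.1), 38.5 CPM at 24 months (range 26.9 to 49.8) and 33.0 CPM at 28 months (range 16.1 to 40.8). Most of this sum came from Areg and Il1rl1, with means of 18.5 and 17.1 CPM at 15 months, so it mainly follows them. From 9 to 15 months, the step in which Gata3 was called, the tested type 2 lymphocyte markers had a median log2 change of 0.25 and adjusted p-values of 0.490 or more, and the eosinophil markers a median of 0.45 and adjusted p-values of 0.323 or more. At 28 against 3 months the eosinophil list had a median of 1.04, with 2 of 4 tested markers higher, Il5ra (1.70) and Prg2 (1.61), and Siglecf lower (-0.78). The T cell list had 3 of 8 higher and none lower, with a median of 0.12 and sums of 30.8 to 51.0 CPM and 27.5 to 85.4 CPM. Il4, Il5 and Il13, which define type 2 cells, were near 0 and not tested. The part of these cells in the rise of Gata3 was not tested.

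Gata2 correlated with the blood endothelium markers. Its r with these 10 markers was 0.52 (permutation p = 1e-05, adjusted p = 0.000188, rho = 0.40 with permutation p = 0.00021 and adjusted p = 0.00315), 0.35 without the 2 farthest mice and 0.71, 0.19 and 0.61 within batches. From 15 to 24 months 8 of 10 endothelial markers were called higher, in a step where 6.28% of all tested genes were. Tek and Emcn were not called. The median log2 change of the 10 was 0.24, beside 0.33 for Gata2. The largest was 0.39 for Vwf, the von Willebrand factor (adjusted p = 0.000177). Over the whole span 8 of 10 rose with a median of 0.19. The summed level was 163 to 200 CPM at 3 months, 122 to 227 CPM at 15 months, 200 to 240 CPM at 24 months and 173 to 249 CPM at 28 months. With the mast cell list r was 0.10 (permutation p = 0.354, adjusted p = 0.566, rho = 0.06 with permutation p = 0.608 and adjusted p = 0.712, r = 0.14 without the 2 farthest mice), although 6 of 6 tested mast cell markers were higher at 28 than at 3 months, with a median of 1.15 and sums of 2.05 to 9.02 and 3.59 to 47.4 CPM. Their part in the rise of Gata2 was not tested.

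Gata4 passed the threshold with none of the 15 lists, at r between -0.21 and 0.22 and adjusted p-values of 0.215 or more. Its r was 0.11 with the small intestinal list (permutation p = 0.331, adjusted p = 0.566, rho = 0.12 with permutation p = 0.285 and adjusted p = 0.464, r = 0.02 without the 2 farthest mice) and -0.19 with the mesothelium list (permutation p = 0.0808, adjusted p = 0.253, rho = -0.18 with permutation p = 0.103 and adjusted p = 0.287, r = -0.12 without the 2 farthest mice). Over age both lists moved. Of 10 tested small intestinal markers, 5 rose and 2 fell from 3 to 28 months, with a median of 0.22 and sums of 837 to 1256 CPM at 3 months and 1127 to 1909 CPM at 28 months. Apob, the apolipoprotein of chylomicrons, rose by 1.16 ± 0.10 (SE, adjusted p = 1.33e-15), while Sis, the sucrase of the small intestine, and Apoa1 were lower, and Apoa4 and Apoc3 were at 0 in 21 and 32 mice. Of 7 mesothelium markers, 5 rose and 1 fell, with a median of 1.18 and sums of 7.27 to 13.3 and 7.95 to 26.9 CPM, and Wt1, a factor of mesothelium, rose by 1.299 ± 0.31 (adjusted p = 5e-04). From 15 to 24 months, where Gata4 rose by 1.15, 6.28% of all tested genes were called higher and 7.24% lower. In this step the small intestinal list had 1 of 10 higher, with a median of -0.06. The mesothelium list had 2 of 7 higher and 1 lower, with a median of 0.53. The part of either cell type in the rise of Gata4 was not tested.

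Gata5 and Gata6 gave weaker and less steady values. With the colonic epithelium list r was 0.35 for Gata5 (permutation p = 0.00123, adjusted p = 0.0154, rho = 0.24 with permutation p = 0.0302 and adjusted p = 0.141) and 0.28 for Gata6 (permutation p = 0.0122, adjusted p = 0.0761, rho = 0.11 with permutation p = 0.317 and adjusted p = 0.486). Without the 2 farthest mice these r were 0.24 and 0.05, and within batches 0.28, -0.32 and 0.63 for Gata5 and 0.12, -0.23 and 0.54 for Gata6, so that they did not hold in each batch. The 15-month mouse 16, the lowest of all mice for Gata6 at 31.5 CPM, belongs to batch 3. Between 28 and 3 months 3 of 9 colonic markers were called, all lower, with a median of -0.07. The erythroid list, whose cells use Gata1, had 6 of 7 tested markers higher at 28 than at 3 months, with a median of 1.22 and sums of 6.86 to 22.6 and 6.42 to 88.4 CPM, beside means of 0.0494 ± 0.0459 and 0.0418 ± 0.0447 CPM (SD) for Gata1.

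The other 7 pairs past the threshold were Gata3 with the large peritoneal macrophage and fibroblast lists, Gata2 with the lymphatic endothelium and fibroblast lists, at r of 0.27 to 0.42, and Gata6 with the eosinophil, type 2 lymphocyte and fibroblast lists, at r of -0.31 to -0.28. Of these, 3 also passed for rho. At 28 against 3 months, 3 of 6 large peritoneal macrophage markers rose and 1 fell (median 0.53), 3 of 4 lymphatic endothelium markers rose (median 0.30), 2 of 6 fibroblast markers rose and 1 fell (median 0.13), 1 of 3 platelet markers rose (median 0.12), 2 of 9 neuron markers fell (median -0.28), and 0 of 7 smooth muscle markers were called by edgeR (median 0.13).

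**Figure D5:**
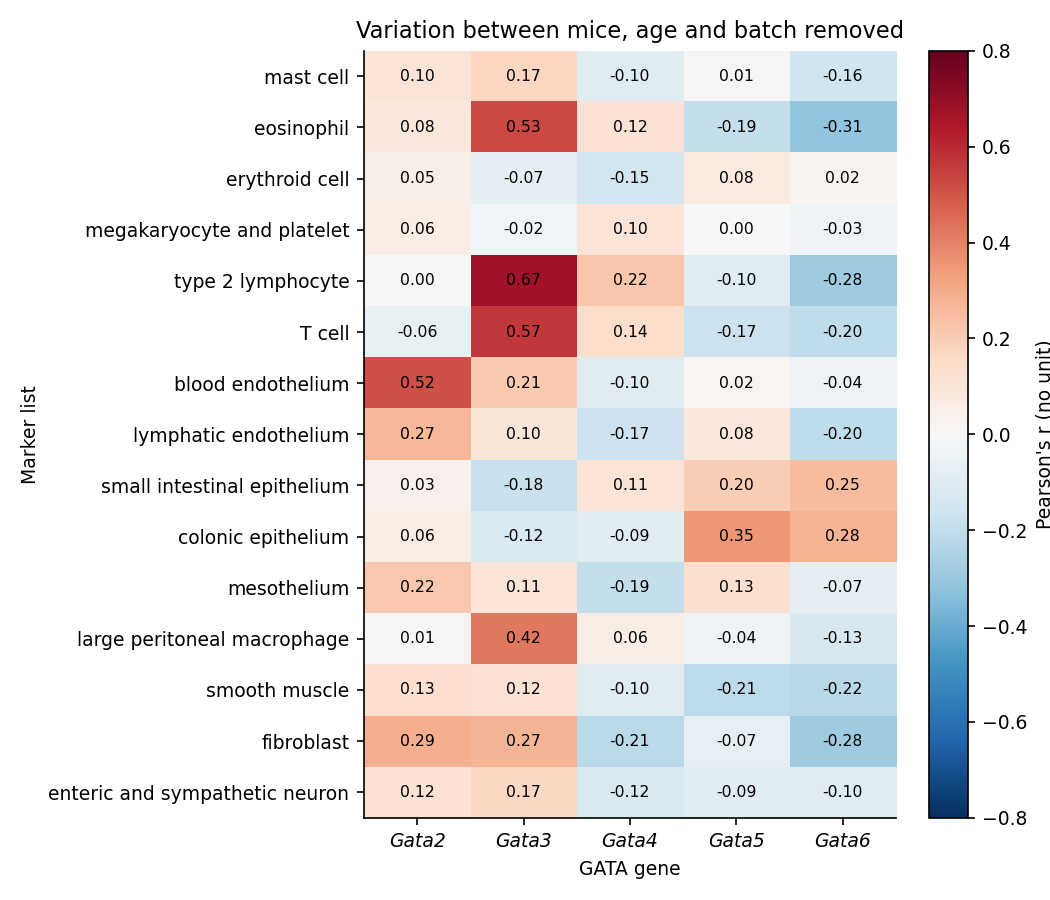
Pearson's r over 83 mice (color and number, no unit) of 5 GATA genes (columns) with the mean log2 CPM of 15 marker lists (rows), with the means of age group and batch removed. Gata3 reaches 0.67 with the type 2 lymphocyte list and Gata2 0.52 with the blood endothelium list, while Gata4 stays between -0.21 and 0.22.

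Partners and cofactors of the GATA factors were read as a list of 14 genes, of which 13 were tested. Between 28 and 3 months 6 rose and 2 fell, with a median log2 change of 0.16 against -0.01 over all genes, where 23.5% of all tested genes were called higher and 25.9% lower. The 3 largest rises were Zfpm1, the cofactor known as FOG, with 0.44 ± 0.08 (SE, adjusted p = 1.37e-05), Erg, an ETS factor of endothelium, with 0.35 ± 0.08 (adjusted p = 1.15e-04), and Runx1, a factor of blood cells, with 0.24 ± 0.05 (adjusted p = 1.17e-05). The 2 that fell were Gfi1b, a repressor of red cells and platelets, by 0.49 ± 0.16 (adjusted p = 0.0118), and Cbfa2t3, a corepressor, by 0.23 ± 0.09 (adjusted p = 0.0326). From 15 to 24 months 4 of 13 rose, Runx1, Spi1, Fli1 and Erg, and none fell, with a median of 0.13, where 13.5% of all genes were called.

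Of 9 other genes with a GATA-type zinc finger, 8 were tested, and from 3 to 28 months 2 rose and 2 fell, a share close to the 49.4% called over all genes, with a median of 0.02. Mta3 rose by 0.18 ± 0.04 (SE, adjusted p = 1.16e-04) and Mta1 by 0.15 ± 0.04 (adjusted p = 0.00396), whereas Mta2 fell by 0.12 ± 0.03 (adjusted p = 0.00216) and Gatad1 by 0.06 ± 0.03 (adjusted p = 0.0882). These are subunits of chromatin complexes. The 12 transcription factors of the intestinal epithelium, which act beside Gata4 and Gata6, were all tested, and 8 of them fell from 3 to 28 months and none rose, with a median of -0.14, against 25.9% of all genes called lower. The largest falls were Foxa3 by 0.35 ± 0.07 (adjusted p = 1.52e-05), Cdx1 by 0.23 ± 0.05 (adjusted p = 1.71e-04) and Foxa2 by 0.21 ± 0.10 (adjusted p = 0.0753). Gata6, with -0.03, was not called in this comparison. From 15 to 24 months 3 of the 12 fell and none rose, in a step where 7.24% of all tested genes were called lower.

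Genes that overlap a member were low, with 1 exception. Gm13256, 4930412O13Rik and 9230102O04Rik overlap Gata3 and reached at most 1, 3 and 7 counts in any mouse, and Gata5os overlaps Gata5 on the other strand and reached at most 5. 9230102O04Rik lies on the strand of Gata3 and shares 77 bases of exon with it, 1.94% of the exons of Gata3. 1010001N08Rik overlaps Gata6 on the other strand with 93 bases of shared exon and had 3.97 ± 0.454 CPM at 3 months and 4.22 ± 0.455 CPM at 28 months (SD), a difference of 0.07 (adjusted p = 0.407). The counting used the strand, so reads of the opposite gene were kept apart, but those from the bases that Gata3 shares with 9230102O04Rik cannot be assigned.

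The tested genes within 250000 bases of each member were looked at after the values were known. Of the 7 such genes around Gata4, 2 were higher and 3 lower at 28 than at 3 months, between -0.93 for Blk, a kinase of B cells, and 0.58 for Neil2, a DNA glycosylase, with a median of -0.01, beside 2.28 for Gata4. Around Gata3 0 of 4 were higher and 2 lower, and around Gata2 0 of 6 were higher and 2 lower. Around Gata1 5 of 24 were higher and 10 lower, around Gata5 3 of 11 were higher and 4 lower, and the 2 genes around Gata6 differed by -0.06 and 0.07 and were not called. Over all genes 49.4% were called in this comparison.

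Promoter windows of 300 bases, from 250 bases before to 50 after a start, were given by RefSeq (GRCm38.p6) for Gata1, Gata2 (2 starts), Gata3 and Gata5. The GATA motif was searched as AGATAA or its variant AGATAG, and as TGATAA or its variant TGATAG, on both strands. It was found in 1 of the 5 windows, that of Gata3, against 29.8% of 32851 windows of the same length over all genes. The window of Gata3, chr2:9878551-9878850 on the minus strand and inside the annotated gene, is shown because it holds the match, written 5′ to 3′ with the match in capitals.
Gata3: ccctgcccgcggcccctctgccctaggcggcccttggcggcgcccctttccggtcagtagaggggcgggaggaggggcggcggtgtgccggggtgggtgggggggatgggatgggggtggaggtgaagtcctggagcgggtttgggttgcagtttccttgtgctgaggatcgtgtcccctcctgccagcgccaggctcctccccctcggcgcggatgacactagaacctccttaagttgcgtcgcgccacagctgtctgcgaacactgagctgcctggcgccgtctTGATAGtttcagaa
The match is a description of these letters and no evidence of binding.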

How the data were processed

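RNA-seq libraries of the colon of 83 mice were analysed. Upstream, the authors removed adapters (cutadapt 2.8), dropped low-quality reads (PrinSeq Lite), mapped the rest to GRCm38 (HISAT2 2.1.0), kept unique alignments (SAMtools 1.9) and counted proper pairs per gene and strand (featureCounts, Subread 2.0.1). The deposited table holds raw counts, 1 column a mouse.

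Counts were filtered with filterByExpr by age group, scaled by TMM and tested in edgeR 4.0.16 (R 4.3.3) by the quasi-likelihood F-test with age group and batch as terms and Benjamini-Hochberg adjustment, as described in the report. TPM used merged exon lengths of an earlier GRCm38 annotation, in which 37652 genes of the table were found and 112 were not. The tests were tried on simulated data with known changes. DESeq2 1.42.0 was an alternative. Depth of each age group is given in the report, and counts were low for Gata1 and, in young mice, for Gata4.

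The members and all gene lists were chosen with earlier results of these data known. Named genes are the members, at most the 3 largest rises and falls of each pathway list at 28 against 3 months past the threshold, genes overlapping a member, and the 5 genes most like each tested member; other names were chosen after their values were seen. Correlations used numpy 2.4.6 and scipy 1.17.1. Replicate numbers did not pair mice: over the 10 pairs of ages the median correlation of same-numbered mice was -0.0617 to 0.0853.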

Additional observations from a re-analysis of the deposited data

How the results depend on the processing

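The calls of Gata2, Gata3 and Gata4 at 28 against 3 months, over all ages and along a straight line held under DESeq2's size factors, no filter, a minimum of 10 counts per mouse (which left out Gata4), no batch term, the replicate block and an adjusted p below 0.05, and those at 28 against 3 months also under DESeq2 and in a fit of only the 2 ages. Gata5 was called in none of these. The change of Gata3 from 15 to 24 months was no longer called without a filter (0.34) or at 0.05 (0.33), and that of Gata4 from 24 to 28 months became called in a fit of the 2 ages (0.42), where the members called went from 0 to 1. Gata6 over all ages passed the threshold with DESeq2's size factors (adjusted p = 0.0878) and with the minimum of 10 counts (adjusted p = 0.0685), and under the latter so did the departure of Gata2 from a line (adjusted p = 0.0885), the 1 member called. The pairs of members that vary together numbered 0, and 4 when age group and batch were not removed, where Gata2 and Gata4 went from r = -0.04 to 0.43. The cause of these changes was not tested. Leaving out each mouse in turn gave 0.45 to 0.58 for Gata3 from 9 to 15 months (2 calls lost) and 0.29 to 0.42 from 15 to 24 months (23 calls lost), and no other call among the successive steps and 28 against 3 months was lost. With the replicate number as a block, the change at 28 against 3 months was 2.41 for Gata4, 1.08 for Gata3 and 0.34 for Gata2, and the block changed no call of a member. The whole-table calls moved by over 1.5 times from 1593 at 9 against 3 months to 882 without a filter, 759 at 0.05 and 872 with 2 ages, from 79 at 15 against 9 months to 125 with DESeq2, from 2476 at 24 against 15 months to 1524 without a filter and 1380 at 0.05, from 2139 at 28 against 24 months to 1302 at 0.05, and from 2969 departing from a line to 1926 at 0.05. The lowest counts were those of Gata1, with 0 to 8 a mouse, and Gata4 had as few as 7 in a mouse at 3 months and 9 at 9 months.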
